A study of Mus musculus with 12 samples.

Results

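The genes described here are 37 genes of striated heart-type muscle, which lung tissue holds in the muscle sleeves of the pulmonary veins and can carry from the heart itself. They were taken by gene symbol from count tables of whole mouse lung, which list 33924 genes in one set of libraries and 22609 in the other. By role they comprise 7 thick filament genes (Myh6, Myh7, Myl2, Myl3, Myl4, Myl7, Mybpc3), 4 thin filament genes (Actc1, Tnnt2, Tnni3, Tnnc1), 9 genes of titin, the Z-disc and the M-band (Ttn, Tcap, Ldb3, Myoz2, Csrp3, Myom1, Myom2, Xirp1, Hspb7), 6 genes of calcium handling (Ryr2, Atp2a2, Pln, Sln, Casq2, Trdn), 7 genes of energy and oxygen supply (Ckm, Ckmt2, Cox6a2, Cox7a1, Cox8b, Fabp3, Mb) and 4 genes of hormone, transcription and stress (Nppa, Corin, Nkx2-5, Ankrd1). A gene was tested where its mean over the 6 libraries of a set was at least 1 CPM, that is, 1 read in 1000000 reads assigned to genes. This filter, taken before scaling, was passed by 35 genes in the first set and 34 in the second, 34 of them in both. Levels in CPM are given after scaling by edgeR's TMM factors. Myl2 and Nkx2-5 were tested in neither set, and Nppa was tested only in the first.

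All mice were of the B6 strain and 6 to 8 weeks old, and lungs were taken 14 to 16 h after treatment with phosphate-buffered saline (PBS) or with a house dust mite extract labelled D.f., for which no route or dose is given in the sources used here. In the RNase III set all mice were wild type, with 2 libraries after PBS, 2 after D.f. without RNase III and 2 after D.f. with RNase III, an enzyme that cleaves double-stranded RNA. The knockout set holds 1 PBS and 2 D.f. libraries of wild type, and 1 PBS and 2 D.f. libraries of mice lacking both TLR3, a receptor for double-stranded RNA, and MAVS, the adaptor of the cytoplasmic RNA sensors. The labels do not say that the libraries of a group came from separate animals, so p-values measure only the spread between these libraries, and for each lone PBS library of the knockout set the fit takes its spread from the groups with replicates. In whole lung, fewer cells of a type and less RNA per cell cannot be told apart.

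Each library held 15687699 to 25714074 reads assigned to genes. As a check of the labels, Tlr3 stood at 9.99 to 14.7 CPM in the 3 knockout libraries and 43.1 to 156 CPM in the 3 wild-type libraries of that set, and Mavs at 2.34 to 3.08 CPM against 32.1 CPM or more. The 10 lung markers examined, such as Sftpc and Scgb1a1, had sums of 20104 to 40589.9 CPM for the RNase III set and 11699 to 15884 CPM in the knockout set. The 6 interferon response genes examined summed to 3083 and 4282 CPM in D.f. libraries of the RNase III set and 2305 and 3379 CPM in wild-type D.f. libraries of the knockout set, and to at most 213 CPM in the other 8 libraries. Where a library held 0 reads of a gene, up to 3 reads (0.119 to 0.189 CPM) remain possible from counting error alone.

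Striated muscle shortens as myosin heads of the thick filament pull on actin of the thin filament, when calcium released through the ryanodine receptor binds troponin. The calcium pump of the sarcoplasmic reticulum then takes calcium back, held in check by phospholamban and sarcolipin. In rodents this heart-type muscle continues from the left atrium into the walls of the pulmonary veins inside the lung, where it uses mostly the atrial forms of the contractile proteins.

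Promoters of 4 genes are shown first, since the results turn on them: Myl7 followed the pattern that most of the genes shared, Nppa was above 1 CPM in only 3 libraries, and Myh7 and Ankrd1 were, with Myom1, the genes farthest from the median profile of the 34 genes tested in both sets. Each is the stretch of 250 bases before the RefSeq start on assembly GRCm38.p6, 5′ to 3′ on the gene's strand. Capitals mark matches on either strand to GATAA (the core of GATA factor sites), AAGTG (the core of NKX2 sites), CATTCC (the core of TEAD sites), TATAAA and the CArG box of serum response factor.
Myl7, chr11:5898783-5899032, minus strand: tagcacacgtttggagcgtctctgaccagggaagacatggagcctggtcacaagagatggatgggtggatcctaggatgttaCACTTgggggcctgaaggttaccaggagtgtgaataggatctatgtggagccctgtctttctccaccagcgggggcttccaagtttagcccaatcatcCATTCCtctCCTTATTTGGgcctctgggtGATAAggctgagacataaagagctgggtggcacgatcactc
Nppa, chr4:148000472-148000721, plus strand: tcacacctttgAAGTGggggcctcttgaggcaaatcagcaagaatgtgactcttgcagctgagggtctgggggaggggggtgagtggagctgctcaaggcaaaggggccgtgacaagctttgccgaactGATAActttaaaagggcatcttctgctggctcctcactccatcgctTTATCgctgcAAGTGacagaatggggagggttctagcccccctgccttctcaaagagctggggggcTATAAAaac
Myh7, the upstream of its listed starts, chr14:54994627-54994876, minus strand: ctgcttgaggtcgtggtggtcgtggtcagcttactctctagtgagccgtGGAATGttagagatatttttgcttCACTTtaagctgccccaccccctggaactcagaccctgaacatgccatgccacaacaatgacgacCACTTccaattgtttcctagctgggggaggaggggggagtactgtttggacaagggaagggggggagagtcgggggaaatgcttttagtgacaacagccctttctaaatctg
Ankrd1, chr19:36119845-36120094, minus strand: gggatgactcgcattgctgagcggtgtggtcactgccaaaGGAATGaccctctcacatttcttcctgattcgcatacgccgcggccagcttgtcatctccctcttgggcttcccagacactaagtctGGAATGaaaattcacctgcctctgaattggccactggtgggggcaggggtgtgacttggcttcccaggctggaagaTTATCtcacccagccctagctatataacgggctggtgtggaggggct
No marked match overlapped another in these 4 stretches.

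Promoter entries were matched for 30 of the 37 genes, 37 entries in all, with none for Tcap, Myom2, Xirp1, Atp2a2, Sln, Trdn and Cox6a2. The CArG box was found in 6 of the 37 entries, from 5 genes, and in 1.47% of all 32851 promoters of this length. The MEF2 motif was found in 4 entries, those of Ttn, Mybpc3, Casq2 and Myoz2, against 1.69% of all promoters. GATAA was found in 11 entries against 22.6% of all promoters, AAGTG in 19 against 40.7%, CATTCC in 7 against 12.6% and TATAAA in 3 against 12.4%. The core of the interferon-stimulated response element was found in 0 of the 37 entries and in 2.98% of all promoters. These matches describe the letters of the stretches searched and were not tested.

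Across libraries the levels of these genes varied together, and more widely than those of most genes. In the RNase III set the ratio of a gene's highest to its lowest library had a median of 11.2 over the 35 tested genes and of 1.55 over all genes tested, and in the knockout set 8.68 over 34 genes against 1.39. The 37 genes together took from 0.0657% of assigned reads in PBS replicate 1 to 0.394% in PBS replicate 2, libraries that carry the same label. In the knockout set the share ran from 0.0716% in knockout D.f. replicate 5 to 0.290% in the wild-type PBS library. Thus the widest gap in the RNase III set lay inside the PBS group, while in the knockout set the 3 wild-type libraries lay above the 3 knockout libraries.

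**Figure D1:**
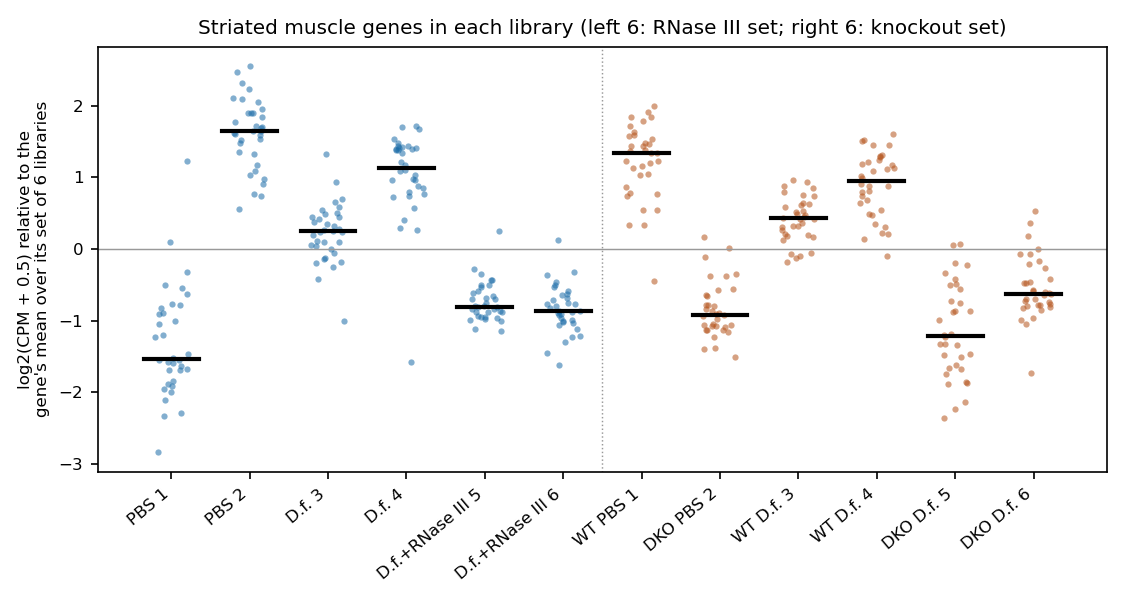
Each point is 1 of the 34 genes tested in both sets, as log2(CPM + 0.5) minus the gene's mean over the 6 libraries of its set, with a bar at the median of each library (WT, wild type; DKO, TLR3MAVS double knockout). Medians run from -1.53 in PBS replicate 1 to 1.65 in PBS replicate 2, and the 3 DKO medians lie between -1.21 and -0.62 against 0.43 to 1.34 in the 3 WT libraries of that set.

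On this relative log2 scale the median of the genes was -1.53 in PBS replicate 1 and 1.65 in PBS replicate 2, with D.f. replicates 3 and 4 between them at 0.25 and 1.14. The D.f. with RNase III libraries were close together at -0.81 and -0.86. PBS replicate 2 was the highest of its 6 libraries for 32 of 35 genes, against 23.1% of all genes tested, with Myh7, Atp2a2 and Ankrd1 as the exceptions. The full order of PBS replicate 2, D.f. replicate 4, D.f. replicate 3 and then both D.f. with RNase III libraries held for 31 of 35 genes and for 2.27% of all genes, and failed for Myh7, Myom1, Atp2a2 and Ankrd1. Folds between 2 libraries were taken as ratios of CPM + 0.5, which narrows those of scarce genes. Between the PBS libraries, 28 of the 35 genes differed by 4-fold or more in this ratio. They made up 22.2% of the 126 genes of the whole table that were at least 4-fold higher in replicate 2.

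In the knockout set the median was 1.34 in wild-type PBS and 0.43 and 0.95 in wild-type D.f. replicates 3 and 4. It was -0.92 in knockout PBS and -1.21 and -0.62 in knockout D.f. replicates 5 and 6. Wild-type PBS was higher than knockout PBS for all 34 genes. In ratios of CPM + 0.5 the median was 4.51-fold, with at least 4-fold for 20 of them. Of all genes 50.6% were higher, and 0.397% at least 4-fold higher. With 1 library of each there is no test of the difference between them. Between replicates of the same label the genes were, in the same ratio, 1.40-fold apart in wild-type D.f. (median) and 1.62-fold apart in knockout D.f. The PBS libraries of the RNase III set were 9.65-fold apart.

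**Figure D2:**
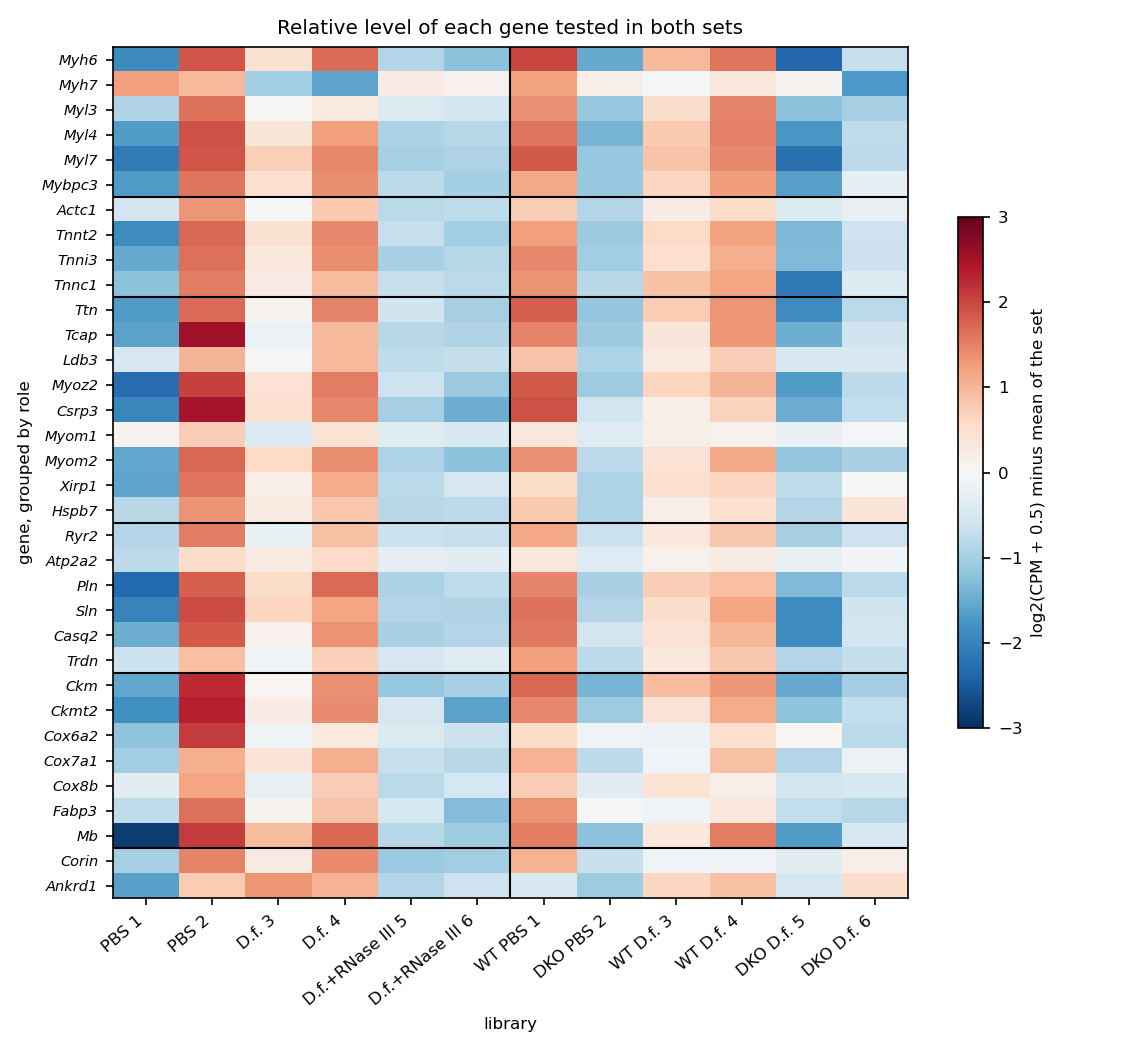
Relative level of each of the 34 genes tested in both sets, with genes in rows grouped by role and the 12 libraries in columns; colour is log2(CPM + 0.5) minus the gene's mean over its set, red for higher and blue for lower. Most rows share the pattern of columns, and the rows of Myh7, Myom1, Atp2a2, Ankrd1 and Cox6a2 depart from it the most.

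Among the thick filament genes, Myh6 encodes alpha myosin heavy chain, the main myosin of the adult mouse heart. Its level, with libraries in order of replicate number here and below, was 43.5 and 618 CPM after PBS, 227 and 532 CPM after D.f. and 90.3 and 70.5 CPM after D.f. with RNase III. The knockout set held it at 433 CPM after PBS and 212 and 332 CPM after D.f. in wild type, and 37.7 CPM after PBS and 20.7 and 66.6 CPM after D.f. in the knockout. PBS replicate 1 was thus lower than all 4 D.f. treated libraries and PBS replicate 2 higher than all of them, while every knockout library was lower than every wild-type library. In edgeR's test Myh6 had a log2 fold change of -2.24 ± 1.02 (SE), adjusted p = 0.252 for RNase III against D.f. alone. Between genotypes with D.f. it was -2.64 ± 0.57 (SE), adjusted p = 0.092, edgeR.

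Myl7 encodes the atrial regulatory light chain. It stood at 5.59 and 97.7 CPM after PBS, 42.5 and 71.0 CPM after D.f. and 12.7 and 13.5 CPM after D.f. with RNase III. Levels of Myl7 in the knockout set were 51.6 CPM after PBS and 25.7 and 39.4 CPM after D.f. in wild type, and 6.16 CPM after PBS and 2.60 and 8.00 CPM after D.f. in the knockout. The PBS libraries again enclosed the other 4, and the 2 genotypes did not overlap. Myl4, the atrial essential light chain, was at 7.91 and 99.8 CPM after PBS, 33.7 and 61.9 CPM after D.f. and 13.4 and 14.3 CPM after D.f. with RNase III. Its knockout set values were 42.3 CPM after PBS and 24.0 and 39.6 CPM after D.f. in wild type, and 4.91 CPM after PBS and 3.71 and 7.80 CPM after D.f. in the knockout. Per exon length, Myl4 kept between 10.1% and 18.2% of the level of Myl7 in all 12 libraries, although each gene alone ranged by at least 11.4-fold within a set. This percentage depends on the length used. The exon unions are 4637 bases for Myl4 and 590 for Myl7, while the transcripts searched for shared sequence held 844 and 491 windows of 100 bases. By reads the 2 genes were closer, at 2207 and 2161 in PBS replicate 2 and 730 and 892 in wild-type PBS.

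The ventricular light chains were scarce or undetected. Myl2, the ventricular regulatory light chain and one of the most abundant transcripts of the ventricle, had 0 reads in 8 of the 12 libraries and at most 2 reads in any. Per exon length it was at most 0.617% of Myl7. Myl3, the essential light chain of ventricle and slow skeletal muscle, was at 0.498 and 5.25 CPM after PBS, 1.42 and 1.74 CPM after D.f. and 0.881 and 0.748 CPM after D.f. with RNase III. The knockout set libraries gave Myl3 at 4.17 CPM after PBS and 2.06 and 4.42 CPM after D.f. in wild type, and 0.315 CPM after PBS and 0.265 and 0.398 CPM after D.f. in the knockout. Like Myl4 it was highest in PBS replicate 2 and lowest in PBS replicate 1, and it stood at no more than 39.6% of Myl4 per exon length. That share rests on exon unions of 1306 bases for Myl3 and 4637 for Myl4, although the transcripts searched held 844 windows of 100 bases each. In wild-type D.f. replicate 4, where the share was highest, Myl3 had 74 reads and Myl4 663. Of the other ventricular markers, Irx4 had 0 reads in every library and Nppb was at or below 0.317 CPM, while Kcnj2, a potassium channel, and Hey2, a transcription factor, which cells outside the heart also express, were at 22.4 to 41.8 CPM and 2.70 to 7.12 CPM over the 12 libraries.

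Myh7, the slow beta myosin heavy chain of the ventricle before birth and of slow skeletal fibres, did not follow the other genes. Its level was 35.6 and 29.9 CPM after PBS, 7.16 and 4.66 CPM after D.f. and 17.8 and 16.4 CPM after D.f. with RNase III. No library of one group overlapped another: PBS was highest, D.f. with RNase III intermediate and D.f. lowest. Knockout set values were 55.4 CPM after PBS and 23.0 and 30.5 CPM after D.f. in wild type, and 27.0 CPM after PBS and 25.2 and 6.86 CPM after D.f. in the knockout. There the wild-type PBS library was again the highest, and the wild-type D.f. libraries did not separate from the knockout D.f. libraries, the latter of which were far apart.

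Myh7 fell with D.f. in the RNase III set, with a log2 fold change of -2.47 ± 0.23 (SE), adjusted p = 0.00134 by the quasi-likelihood test of edgeR, with p adjusted over all genes by the Benjamini-Hochberg method. It was higher with RNase III than without, by 1.53 ± 0.22 (SE), adjusted p = 0.00908 in the same test. In wild type of the knockout set the change was -1.05 ± 0.65 (SE), adjusted p = 0.457, and the fit over the 7 wild-type libraries of both sets gave -1.89 ± 0.32 (SE), adjusted p = 0.00686. The response of Myh7 was not shown to differ between the sets (log2 difference 1.44 ± 0.37 (SE), adjusted p = 0.654, edgeR). However, 0 of all 14152 genes passed that test, and Myh7 was the only one of the 35 with an unadjusted p under 0.05 in it. The fall with D.f. passed the threshold under every alternative run in the RNase III set and over both sets. The rise with RNase III did not without D.f. with RNase III replicate 5 (adjusted p = 0.101, edgeR) or replicate 6 (adjusted p = 0.0623) or in 1 fit over all 12 libraries (adjusted p = 0.0756).

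Relative to Myh6 per exon length, Myh7 was 61.1% in PBS replicate 1, 3.61% in PBS replicate 2, 2.36% and 0.654% with D.f. and 14.7% and 17.3% with D.f. and RNase III. In the knockout set the ratio was 9.55% with PBS and 8.07% and 6.86% with D.f. in wild type, and 53.4%, 91.1% and 7.68% in the knockout libraries. In each set the ratio was highest in the library where Myh6 was lowest, and Myh6 ranged by up to 20.9-fold across a set against 8.08-fold for Myh7. The transcripts of Myh6 and Myh7 share 687 of their 100-base windows, 11.5% and 11.2% of each, and reads with several alignments were set aside, so these levels rest on the parts that differ.

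The last thick filament gene, Mybpc3, encodes cardiac myosin binding protein C. It ranged from 1.71 to 21.2 CPM across the RNase III set and from 0.743 to 8.60 CPM in the knockout set, with PBS replicate 2 highest and PBS replicate 1 lowest of the first. It kept close to the shared pattern, with a root mean square distance of 0.24 log2 units from the median profile of the tested genes over 12 libraries.

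**Figure D3:**
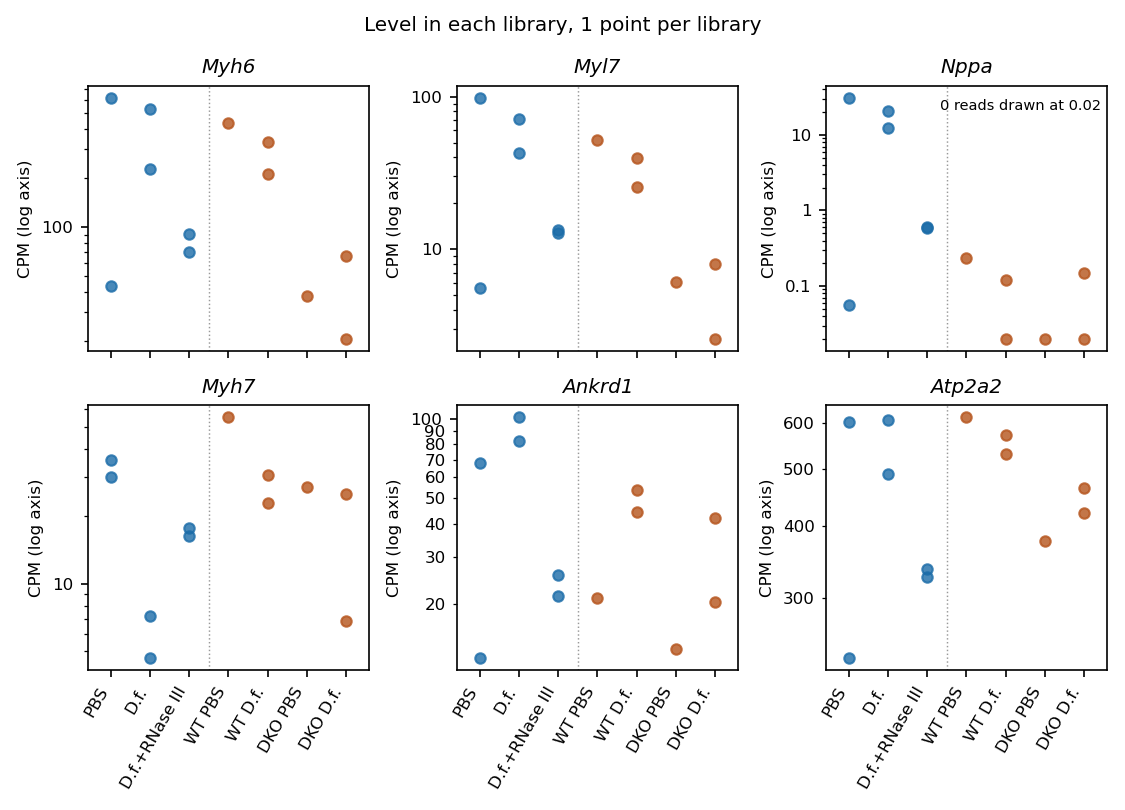
Level in CPM on a log axis for 6 genes, 1 point per library, with blue for the RNase III set and orange for the knockout set (WT, wild type; DKO, TLR3MAVS double knockout). Myh6 and Myl7 share 1 pattern with the PBS libraries far apart, Nppa stays under 1 CPM outside 3 libraries, and in Myh7 the 3 groups of the RNase III set do not overlap.

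Of the thin filament genes, Actc1 encodes cardiac alpha-actin. It stood at 49.1 and 181 CPM after PBS, 71.8 and 123 CPM after D.f. and 41.0 and 42.0 CPM after D.f. with RNase III. Knockout set libraries held 97.2 CPM after PBS and 67.5 and 85.1 CPM after D.f. in wild type, and 31.6 CPM after PBS and 43.3 and 50.0 CPM after D.f. in the knockout. Both D.f. libraries lay between the PBS libraries, and the genotypes did not overlap. Tnnt2, cardiac troponin T, which ties the troponin complex to tropomyosin, was at 10.5 and 133 CPM after PBS, 55.3 and 110.2 CPM after D.f. and 24.7 and 19.7 CPM after D.f. with RNase III. The knockout set held Tnnt2 at 60.2 CPM after PBS and 38.3 and 59.5 CPM after D.f. in wild type, and 11.7 CPM after PBS and 9.71 and 16.3 CPM after D.f. in the knockout. Actc1 varied less (4.41-fold across the RNase III set) than Tnnt2 (12.7-fold).

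Tnni3, the inhibitory cardiac troponin subunit, was the gene closest to the median profile (distance 0.11 log2 units). It ranged from 7.13 to 68.3 CPM across the RNase III set and from 3.92 to 29.5 CPM in the knockout set. Per exon length Tnni3 was 22.2% to 38.9% of Tnnt2 in all 12 libraries. That share rests on exon unions of 1928 bases for Tnni3 and 1106 for Tnnt2, while the transcripts searched held 813 and 998 windows of 100 bases. Tnnc1, the calcium-binding troponin of heart and slow muscle, ranged from 2.77 to 21.7 CPM and from 0.424 to 9.78 CPM in the respective sets. All 4 thin filament genes were lower in the 3 knockout than in the 3 wild-type libraries, when 8.00% of all genes tested were. None of the 4 passed the test in any comparison, when 0% to 15.6% of all genes passed, depending on the comparison.

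Ttn encodes titin, the elastic protein that spans from Z-disc to M-band. It had the highest mean CPM of the 37 genes and stood at 135 and 1410.5 CPM after PBS, 470.0 and 1223 CPM after D.f. and 290.0 and 219.6 CPM after D.f. with RNase III. Levels of Ttn in the knockout set were 1106 CPM after PBS and 538 and 795 CPM after D.f. in wild type, and 142 CPM after PBS and 86.1 and 180.4 CPM after D.f. in the knockout. Its order of libraries was that of Myh6 in both sets. Per exon length it was far from the highest: the mean over 12 libraries was 4.71 CPM per kb for Ttn, against 81.9 for Atp2a2, 53.2 for Myl7, 45.5 for Actc1, 41.4 for Tnnt2 and 34.9 for Myh6.

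The 2 myomesins, which crosslink thick filaments at the M-band, differed from one another. Myom2 was at 1.77 and 21.4 CPM after PBS, 9.49 and 17.0 CPM after D.f. and 2.97 and 2.35 CPM after D.f. with RNase III. Its knockout set values were 14.4 CPM after PBS and 7.33 and 12.1 CPM after D.f. in wild type, and 2.83 CPM after PBS and 2.02 and 2.44 CPM after D.f. in the knockout. The genotypes did not overlap for Myom2. Myom1 stood at 27.9 and 44.0 CPM after PBS, 19.4 and 34.7 CPM after D.f. and 20.4 and 18.9 CPM after D.f. with RNase III. The knockout set libraries gave Myom1 at 33.1 CPM after PBS and 29.3 and 28.7 CPM after D.f. in wild type, and 19.9 CPM after PBS and 22.7 and 24.9 CPM after D.f. in the knockout. Myom2 followed the shared pattern, while Myom1 ranged by only 2.33-fold and 1.66-fold across the sets, and its lowest libraries were D.f. with RNase III replicate 6 and knockout PBS.

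Among the other Z-disc genes, PBS replicate 2 was the highest library of the RNase III set and a D.f. with RNase III library or PBS replicate 1 the lowest for each. Csrp3, a muscle LIM protein of the Z-disc, ranged from 0.719 to 26.01 CPM, Myoz2, which tethers calcineurin there, from 0.387 to 17.5 CPM, and Tcap, the cap of titin's end, from 1.33 to 32.0 CPM. Ldb3, which binds alpha-actinin, ranged from 8.59 to 30.8 CPM, Xirp1, an actin-binding repeat protein, from 0.608 to 9.50 CPM, and Hspb7, a small heat shock protein of heart, from 8.87 to 42.5 CPM. In the knockout set Hspb7 was the only one of these 6 whose genotypes overlapped. It stood at 17.9 CPM in knockout D.f. replicate 6 against 15.8 CPM in wild-type D.f. replicate 3. The others of the 6 were lower in all knockout than in all wild-type libraries, when 8.00% of all genes tested were.

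Of the calcium handling genes, Ryr2 encodes the release channel of the sarcoplasmic reticulum. It was at 28.0 and 154 CPM after PBS, 45.5 and 96.7 CPM after D.f. and 33.2 and 32.4 CPM after D.f. with RNase III. Knockout set libraries held 99.9 CPM after PBS and 55.4 and 77.9 CPM after D.f. in wild type, and 28.2 CPM after PBS and 22.01 and 28.6 CPM after D.f. in the knockout. Ryr2 was high in PBS replicate 2 and D.f. replicate 4, and every knockout library was below every wild-type library. Atp2a2, the calcium pump SERCA2, also has a form used by cells outside muscle. It stood at 237 and 604 CPM after PBS, 489.9 and 608 CPM after D.f. and 336 and 327 CPM after D.f. with RNase III. The knockout set held Atp2a2 at 614 CPM after PBS and 532 and 572 CPM after D.f. in wild type, and 376 CPM after PBS and 419.8 and 464 CPM after D.f. in the knockout. In edgeR's test Atp2a2 had log2 fold changes of -0.73 ± 0.38 (SE), adjusted p = 0.319 for RNase III against D.f. alone and -0.32 ± 0.10 (SE), adjusted p = 0.188 between genotypes with D.f. Its order of libraries differed from that of Ryr2 by 1 swap of neighbours in each set, and its range was narrow, 2.57-fold and 1.64-fold across the sets.

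Pln encodes phospholamban, the pump's inhibitor. Its level was 0.774 and 21.6 CPM after PBS, 8.90 and 20.5 CPM after D.f. and 2.81 and 3.31 CPM after D.f. with RNase III. Levels of Pln in the knockout set were 12.2 CPM after PBS and 7.18 and 8.12 CPM after D.f. in wild type, and 1.82 CPM after PBS and 1.33 and 2.14 CPM after D.f. in the knockout. PBS replicate 1 held the lowest level of Pln, and no knockout library reached any wild-type library. Sln, sarcolipin, the inhibitor that atrial muscle uses, stood at 0.774 and 19.2 CPM after PBS, 7.51 and 11.0 CPM after D.f. and 2.26 and 2.24 CPM after D.f. with RNase III. Knockout set values of Sln were 8.16 CPM after PBS and 3.54 and 5.85 CPM after D.f. in wild type, and 1.01 CPM after PBS and 0.265 and 1.34 CPM after D.f. in the knockout. Both had D.f. between the PBS libraries and no overlap of genotypes, and per exon length Sln exceeded Pln in 11 of the 12 libraries (96.3% to 482% of it), with knockout D.f. replicate 5, which held 5 reads of Sln, as the exception. Casq2, the calcium store of the cardiac reticulum, ranged from 1.60 to 20.4 CPM and from 0.318 to 8.40 CPM in the respective sets, and Trdn, triadin, which anchors it, from 0.664 to 2.89 CPM and from 0.212 to 2.55 CPM.

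Of the energy and oxygen genes, Mb encodes myoglobin, the oxygen store of red muscle. Its level was 0.885 and 42.1 CPM after PBS, 18.6 and 32.1 CPM after D.f. and 4.96 and 4.28 CPM after D.f. with RNase III. The knockout set libraries gave Mb at 13.5 CPM after PBS and 5.56 and 13.4 CPM after D.f. in wild type, and 1.57 CPM after PBS and 1.01 and 2.98 CPM after D.f. in the knockout. Its range across the RNase III set was the widest after that of Nppa, 47.6-fold from PBS replicate 1 to replicate 2. Ckm, the cytoplasmic muscle creatine kinase, was at 0.830 and 18.0 CPM after PBS, 3.56 and 9.68 CPM after D.f. and 1.27 and 1.496 CPM after D.f. with RNase III. Knockout set libraries held 7.64 CPM after PBS and 4.23 and 5.61 CPM after D.f. in wild type, and 0.440 CPM after PBS and 0.371 and 0.696 CPM after D.f. in the knockout. Both genes followed the shared order in the RNase III set. The reads of Ckm can include those of A930016O22Rik on the opposite strand, which shares 12.2% of its windows.

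Cox6a2 encodes the muscle form of a cytochrome oxidase subunit. It was at 4.42 and 48.2 CPM after PBS, 9.92 and 13.3 CPM after D.f. and 7.87 and 6.79 CPM after D.f. with RNase III. The knockout set held Cox6a2 at 7.53 CPM after PBS and 4.33 and 7.23 CPM after D.f. in wild type, and 4.59 CPM after PBS and 5.20 and 2.63 CPM after D.f. in the knockout. PBS replicate 2 stood apart from the other 11 libraries, which held at most 13.3 CPM, and the genotypes overlapped. The general form of that subunit, Cox6a1, had a narrow range, 51.8 to 93.0 CPM over all 12 libraries. Cox7a1 and Cox8b, muscle forms of other subunits, ranged from 1.27 to 7.28 CPM and from 0.881 to 4.98 CPM across the RNase III set, while their general forms Cox7a2 and Cox8a ranged from 26.4 to 45.6 CPM and from 30.9 to 51.3 CPM over 12 libraries. Ckmt2, the mitochondrial muscle creatine kinase, ranged from 0.608 to 19.5 CPM, and Fabp3, the fatty acid carrier of heart, from 0.962 to 10.8 CPM, each across the RNase III libraries.

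Nppa encodes atrial natriuretic peptide, the hormone stored in atrial granules. It stood at 0.0553 and 30.8 CPM after PBS, 12.2 and 20.5 CPM after D.f. and 0.606 and 0.588 CPM after D.f. with RNase III. Knockout set values were 0.232 CPM after PBS and 0 and 0.119 CPM after D.f. in wild type, and 0 CPM after PBS and 0 and 0.149 CPM after D.f. in the knockout. Nppa was thus high in 3 libraries of the RNase III set, and elsewhere rested on few reads: 1 in PBS replicate 1 (exact Poisson 95% interval 0.0014 to 0.308 CPM), 11 in each D.f. with RNase III library and 0 to 4 in the knockout set. Its promoter, printed above, held GATAA and AAGTG 2 times each and was the only one of the 4 with TATAAA.

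Relative to Myl7 per exon length, Nppa was 21.5% in PBS replicate 2 and 19.5% and 19.7% in D.f. replicates 3 and 4. It was 0.675% in PBS replicate 1 and 3.25% and 2.98% with D.f. and RNase III, and 0% to 1.27% in the knockout set. Wild-type PBS of the knockout set held 892 reads of Myl7 and 4 of Nppa, where PBS replicate 2 of the RNase III set held 2161 and 681. In the RNase III set Nppa was -4.76 ± 1.76 (log2, SE) with RNase III against D.f. alone, adjusted p = 0.163 by edgeR, and 0.07 ± 1.29 (SE), adjusted p = 0.981 for D.f. against PBS.

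Corin encodes the enzyme that activates the natriuretic peptide. It ranged from 0.881 to 7.87 CPM across the RNase III set and from 1.01 to 4.40 CPM in the knockout set, where its genotypes overlapped. Nkx2-5, a transcription factor of cardiac identity, had 10 reads in PBS replicate 2, 11 and 13 in D.f. replicates 3 and 4 of the RNase III set and 9 in each wild-type D.f. library of the knockout set. The other 7 libraries held 1 to 3 reads of it, and its highest level was 0.567 CPM.

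Ankrd1, a stress-responsive repeat protein of the nucleus and of titin's I-band, departed from the others in another way than Myh7. Its level was 12.5 and 68.3 CPM after PBS, 101 and 82.4 CPM after D.f. and 21.4 and 25.7 CPM after D.f. with RNase III. Levels of Ankrd1 in the knockout set were 21.1 CPM after PBS and 44.5 and 53.8 CPM after D.f. in wild type, and 13.5 CPM after PBS and 20.3 and 42.1 CPM after D.f. in the knockout. Both D.f. libraries were above both PBS libraries in the RNase III set, and within each genotype of the knockout set both D.f. libraries were above the PBS library. The log2 fold changes with D.f. were 1.18 ± 0.63 in the RNase III set, 1.22 ± 0.44 in wild type and 1.21 ± 0.46 in the knockout (adjusted p = 0.286, 0.25 and 0.817 by edgeR). Over the 7 wild-type libraries of both sets it was 1.20 ± 0.48 (SE), adjusted p = 0.135, edgeR. Ankrd1 passed that test, upward, when either PBS replicate 1 or PBS replicate 2 of the RNase III set was left out, and under none of the other alternatives run.

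When D.f. was compared with PBS in the RNase III set, 1 of the 35 tested genes passed edgeR's test, namely Myh7, which fell, when 11.7% of all 15491 genes passed. The median log2 fold change was -0.06 over the 35 genes and -0.01 over all genes, with 15 genes above 0 and 20 below. For 31 genes both D.f. libraries lay between the PBS libraries, as for 17% of all genes, so the direction depended on which PBS library D.f. was set against. Without PBS replicate 2 the median was 2.59, with 27 genes higher and Myh7 lower, among 1623 of all genes higher and 1336 lower. Without PBS replicate 1 it was -0.89, with 8 genes lower, among 1214 of all genes (Cox6a2, Csrp3, Hspb7, Myh7, Myl3, Myl4, Sln and Tcap).

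**Figure D4:**
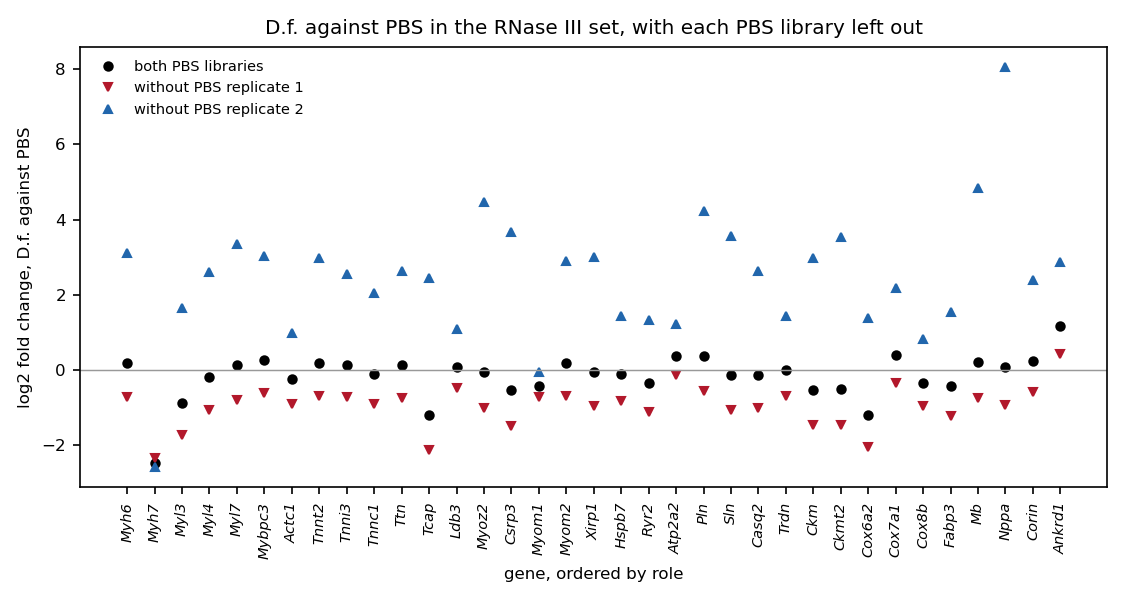
Log2 fold change between D.f. and PBS of the RNase III set for the 35 tested genes in order of role, with both PBS libraries (black), without PBS replicate 1 (red) and without PBS replicate 2 (blue). Leaving out replicate 2 moves the median from -0.06 to 2.59 and leaving out replicate 1 to -0.89, while Myh7 stays near its value of -2.47.

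In wild type of the knockout set, none of 34 genes passed for D.f. against PBS, when 1.40% of all 14107 genes did. The median was -0.61 against -0.02 over all genes, with 32 genes below 0. By edgeR 4 of the 34 had an unadjusted p under 0.05, as had 2511 of all 14107 genes. DESeq2 called 0 of the 34, and its count over all genes is given at the end. Without knockout D.f. replicate 5 or 6, which enter only through the shared estimate of spread, 13 and 16 genes passed, 1 of them (Ankrd1) upward in each fit, among 2900 and 3198 of all genes. Over both sets 1 of 35 genes passed (Myh7, lower), when 15.6% of all 14152 genes did, with a median of -0.27 against -0.01 over all genes. No gene of the 35 passed for a difference in the D.f. response between the sets, when 0% of all genes did by edgeR (787 at an unadjusted p under 0.05, and 53 by DESeq2); 1 of the 35 had an unadjusted p under 0.05, and DESeq2 called 0 of them.

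Compared with D.f. alone, 34 of the 35 genes were lower after D.f. with RNase III, with a median log2 fold change of -1.79 against 0.00 over all genes. Both RNase III libraries lay below both D.f. libraries for 33 genes, all but Myh7 and Myom1, when 31.2% of all genes did so. Only Myh7, which rose, passed edgeR's test, when 8.00% of all genes passed. By role the medians were -1.92 for the thick filament, -1.70 for the thin filament, -1.62 for titin, Z-disc and M-band, -1.54 for calcium handling, -1.79 for energy and oxygen and -2.51 for the hormone, transcription and stress group. The PBS libraries are in no side of this contrast, but share its estimate of spread: without PBS replicate 1 it called 30 genes lower and without PBS replicate 2 it called 29 lower, with medians of -1.79 in each. Of all genes, 1586 and 1593 were called lower in those fits, against 828 with every library.

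Compared with PBS, all 35 genes were lower after D.f. with RNase III, with a median of -1.83 against -0.01 over all genes. None passed, when 0.00646% of all genes did. By edgeR 9 of the 35 had an unadjusted p under 0.05, as had 748 of all 15491 genes. DESeq2 called 0 of the 35, and its count over all genes is given at the end. The 3 comparisons of the RNase III set share libraries with one another, as do those of the knockout set. Without PBS replicate 1 the median against PBS was -2.68, and without PBS replicate 2 it was 0.73.

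Among D.f. libraries, 33 of 34 genes were lower in the knockout than in wild type, with a median log2 fold change of -1.98 against 0.00 over all genes. Both knockout libraries lay below both wild-type libraries for 30 genes, when 25.8% of all genes did so. By edgeR 4 genes fell, when 2.44% of all genes passed. The log2 fold changes were -3.18 ± 0.37 (SE), adjusted p = 0.0263 for Ckm and -2.13 ± 0.27 (SE), adjusted p = 0.0306 for Pln. They were -2.12 ± 0.31 (SE), adjusted p = 0.0404 for Myom2 and -1.39 ± 0.21 (SE), adjusted p = 0.0433 for Ryr2. Ckm rested on few reads in the knockout D.f. libraries, 7 and 14, against 86 and 94 in the wild-type D.f. libraries. In all, 28 of the 34 had an unadjusted p under 0.05, as had 2601 of all 14107 genes. The medians by role were -2.53 for the thick filament, -1.88 for the thin filament, -1.94 for titin, Z-disc and M-band, -2.20 for calcium handling, -1.41 for energy and oxygen and -0.29 for the 2 tested genes of hormone, transcription and stress.

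**Figure D5:**
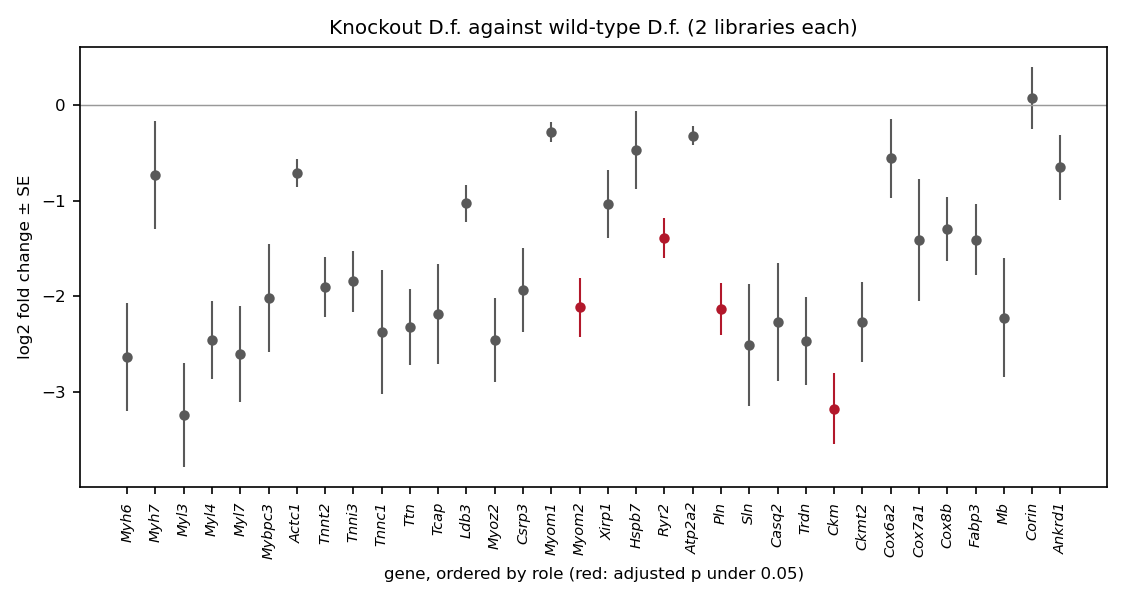
Log2 fold change ± SE of knockout D.f. against wild-type D.f. (2 libraries each) for 34 genes in order of role, with the 4 genes past an adjusted p of 0.05 in red. Every gene but Corin lies below 0, Myom1 and Atp2a2 closest to it among the genes with small errors.

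These calls rested on few libraries. By DESeq2 22 of the 34 genes passed, all lower, when 531 of all genes were called lower, against 274 by edgeR. With a library left out, the numbers of muscle genes and of all genes that passed both moved widely. Those ranges, and the fit over all 12 libraries, are given at the end. The median stayed between -1.56 and -2.42 with each library left out in turn.

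With PBS libraries added, the 3 knockout libraries lay below the 3 wild-type libraries for 28 of 34 genes, when 8.00% of all genes did so; the exceptions were Myh7, Hspb7, Cox6a2, Fabp3, Corin and Ankrd1. A fit with genotype and treatment as terms gave a median of -2.21 against 0.00 over all genes, with all 34 genes below 0. Pln (-2.33 ± 0.25 (SE), adjusted p = 0.0456) and Ckm (-3.46 ± 0.34 (SE), adjusted p = 0.037) fell by edgeR, when 0.206% of all genes passed. Neither passed when any 1 of the 4 D.f. libraries was left out. The number of all genes that passed also changed with the library left out, over the range given at the end. This comparison was added after the values were seen.

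Within the knockout, none of 34 genes passed between D.f. and PBS, when 0% of all genes did by edgeR (786 genes at an unadjusted p under 0.05, and 36 genes by DESeq2); 3 of the 34 had an unadjusted p under 0.05, and DESeq2 also called none. The median was 0.14 against 0.01 over all genes. No gene passed for the difference of the D.f. response between genotypes, when 0% of all genes did by edgeR (1404 at an unadjusted p under 0.05, and 213 by DESeq2). The median was 0.64 against 0.01 over all genes, 2 of the 34 had an unadjusted p under 0.05, and DESeq2 called 0 of them. Without knockout D.f. replicate 5 or 6, 5 genes in each case passed for D.f. in the knockout, among 1860 and 393 of all genes, and 6 and 2 for the difference, among 1435 and 1487.

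Outside the 37 genes, the 10 genes whose profile over 12 libraries was nearest to the shared one, by the same root mean square distance and among 13670 genes, included Txlnb, Mapk10, Lmod2, Eef1a2, Pgam2, Smpx, Srl, Synpo2l and Mybphl. Their distances ran from 0.17 to 0.26 log2 units, against a median of 1.08 over the genes compared. Likeness was described and not tested, and the genes compared share the depth and tissue of each library.

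A list of 55 other striated muscle genes, chosen like the 37 with earlier results known, 6 of which are among those 10, was examined beside the 37. Of its 44 tested in the RNase III set, 38 were higher in PBS replicate 2 than in replicate 1, when 49.2% of all genes were. Of the same 44, 28 were lower in both D.f. with RNase III libraries than in both D.f. libraries, when 31.2% of all genes were. Of 40 tested in the knockout set, 27 were lower in all 3 knockout than in all 3 wild-type libraries, when 8.00% of all genes were. With D.f., 4 of the 40 fell in the knockout by edgeR, when 2.44% of all genes passed: Srl, a calcium-binding reticulum protein (log2 fold change -1.47 ± 0.19, adjusted p = 0.0294), Actn2, the Z-disc actinin (-2.37 ± 0.36, adjusted p = 0.0433), Kcnj3, the atrial potassium channel (-3.45 ± 0.53, adjusted p = 0.0448), and Smyd1, a muscle methyltransferase (-1.81 ± 0.29, adjusted p = 0.0481). In the RNase III set 1 of 44 fell with D.f., Gja5, a connexin of atrium and arteries (-1.36 ± 0.24, adjusted p = 0.0147), when 11.7% of all genes passed. The 4 most abundant of the list, Tpm1, Nebl, Des and Cacna1c, which cells outside striated muscle also express, varied by less than 3-fold over the 12 libraries.

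In the RNase III set, some markers of other tissues that a lung sample can carry varied along with these genes. The 12 white adipose markers summed to 64.4 CPM in PBS replicate 1, 294 in PBS replicate 2, 137 and 217 with D.f. and 72.3 and 61.9 with D.f. and RNase III. Adipoq, the fat cell hormone adiponectin, was at 0 and 14.8 CPM after PBS, 3.80 and 7.67 CPM after D.f. and 0.385 and 0.321 CPM after D.f. with RNase III. Cfd, adipsin, stood at 0.221 and 79.6 CPM after PBS, 29.6 and 43.0 CPM after D.f. and 3.19 and 1.82 CPM after D.f. with RNase III. Both were high in PBS replicate 2 and D.f. replicates 3 and 4, the same 3 libraries in which Nppa was above 1 CPM, and their order among those 3 was that of Myl7. Krt5, a keratin of basal epithelium and 1 of the 8 oesophagus epithelium markers, was at 3.57 CPM in PBS replicate 2. It was at 3.56 and 1.66 CPM in D.f. replicates 3 and 4, and at or below 0.0597 CPM in the other 9 libraries. For RNase III against D.f. alone, the 3 tested genes of its list had unlike log2 fold changes. They were -6.31 for Krt5, -1.37 for Sprr1a and -0.11 for Dmkn. Adipoq, Cfd and Krt5 were picked from their lists after their values were seen. The 11 white adipose markers tested in the RNase III set had a median log2 fold change of -3.05 for RNase III against D.f. alone. Not all of them followed: Adrb3 (0.47) and Cidec (0.08) were higher in that comparison, and Lipe (-0.40) was only slightly lower.

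The white adipose sum of the knockout set was 159 CPM in wild-type PBS, 132 in knockout PBS, 92.2 and 85.8 in wild-type D.f. and 138 and 128 in knockout D.f. The sum was thus higher in both knockout D.f. than in both wild-type D.f. libraries, while Cfd and Car3, a carbonic anhydrase of fat and muscle, were lower in all 3 knockout than in all 3 wild-type libraries. There Cfd was 13.0 CPM after PBS and 6.34 and 5.20 CPM after D.f. in wild type, and 1.57 CPM after PBS and 2.55 and 4.57 CPM after D.f. in the knockout. Car3 stood at 17.6 CPM after PBS and 3.98 and 4.54 CPM after D.f. in wild type, and 0.629 CPM after PBS and 1.33 and 3.13 CPM after D.f. in the knockout. Between genotypes with D.f., the 7 tested white adipose markers had a median log2 fold change of 0.66. Cidec (1.32), Fabp4 (0.88), Lipe (0.70), Adrb3 (0.66) and Plin4 (0.51) were higher in the knockout, and Cfd (-0.69) and Car3 (-0.92) lower. By edgeR 0 of the 7 passed, when 2.44% of all genes did. The 20 fast skeletal muscle markers had sums of 9.51 to 18.2 CPM for the RNase III set and 7.49 to 16.9 CPM in the knockout set, with Myog and Myod1 at 0 reads in every library, and Myh4 at 3.20 CPM in wild-type D.f. replicate 3 and at or below 0.0452 CPM elsewhere. Within the RNase III set that sum was highest in PBS replicate 2 and lowest in PBS replicate 1, as for most of the 37 genes. The 12 smooth muscle markers summed to 2092 and 2105 CPM with PBS, 1407 and 1532 with D.f. and 1600.3 and 1645 with D.f. and RNase III, and to 1666 to 2017 CPM in the knockout set. The smooth muscle sum did not separate the PBS libraries from each other.

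Ucp1, of brown fat, stood apart at 3.10 CPM in D.f. replicate 4 and was at or below 0.116 CPM elsewhere. Of the 10 thymus markers, whose sum was 3.38 to 16.4 CPM, Rag1 stood apart at 4.46 CPM in D.f. with RNase III replicate 5. Both genes were picked after their values were seen, and Rag1 was at or below 0.657 CPM in the other libraries. The 10 brown adipose markers had sums of 88.6 to 112 CPM for the RNase III set and 118 to 138 CPM in the knockout set, and the 8 oesophagus epithelium markers of 12.6 to 33.2 CPM and 21.4 to 60.4 CPM. Of the 6 atrial markers outside the 37 genes, Nr2f2, Dkk3 and Gja5, which lung vessels also express, made up most of a sum of 236 to 415 CPM, and Bmp10 had at most 1 read. The 6 slow skeletal markers summed to 1.27 to 3.64 CPM over all 12 libraries. The part of carried tissue in the differences between libraries and groups was not tested.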

How the data were processed

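The deposited tables hold HTSeq counts of reads per gene. Per the submitters' processing notes and the series' design text, the authors made total RNA libraries with TruSeq kits, sequenced 100-base single reads, and used bcl2fastq, TopHat2 2.0.8b, HTSeq and mouse build mm9. Neither the gene annotation nor the strand setting is given in the sources used here, so genes whose exons overlap those of another gene (Nppa, Ckm, Ttn, Tnni3, Fabp3, Cox6a2, Mb, Myl2, Pln, Ckmt2, Myl4) can share reads.

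Rows that name no gene were left out; they hold reads without a feature (27.0% to 40.0% of reads per library), not unique (36.8% to 44.6%) or ambiguous (0.0552% to 0.172%), which leaves 23.1% to 28.2% assigned. CPM are per 1000000 assigned reads after TMM scaling. Genes with a mean of at least 1 CPM over the libraries of a fit, before that scaling, were tested. The test was the quasi-likelihood test of edgeR 4.0.16 (R 4.3.3), with Benjamini-Hochberg adjustment over all genes tested, at an adjusted p under 0.05. Residual degrees of freedom were 3 in the RNase III set, 2 in the knockout set, 4 over both sets and 3 in the genotype fit, which was added after the values were seen. The code was tested on simulated data.

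The 37 genes and all lists were chosen with earlier results of these data known. All 37 are named, those that carry the description with every library. Levels per exon length use the GENCODE exon union of build NCBIM37, which for some genes, such as Myl4, is far longer than the transcript searched for shared windows. Distances between profiles use log2(CPM + 0.5) relative to each set's mean. Median folds and 4-fold counts between pairs of libraries are ratios of CPM + 0.5. Poisson intervals at 95% and the 3-count floor cover counting error only. Alternatives were DESeq2 1.42.0, its size factors in edgeR, 2 other filters, 1 fit over all 12 libraries, a prior of 2 CPM and leaving out each library in turn. One of the genes nearest in profile is not reported here.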

Additional observations from a re-analysis of the deposited data

How the results depend on the processing

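No paired analysis was possible because the groups compared share no replicate numbers within a set. Myh7 kept its call for D.f. against PBS under every alternative run in the RNase III set and over both sets. With only 1 to 2 libraries a group and as few as 2 residual degrees of freedom, calls depended on single libraries, and the cause was not tested. With each library left out in turn, the following ranges were found. For D.f. against PBS in wild type of the RNase III set, 571 to 2959 genes and 1 to 28 of the muscle genes passed, and the muscle genes' median was -0.89 to 2.59, reversing to 2.59 without PBS replicate 2 and to 0.35 without D.f. replicate 3. With RNase III against PBS, 0 to 139 genes and 0 to 26 muscle genes passed, with a median of -2.68 to 0.73, reversed without PBS replicate 2. With RNase III against D.f. alone, 115 to 2786 genes and 0 to 31 muscle genes passed. In the knockout set, 0 to 3198 genes and 0 to 16 muscle genes passed for wild-type D.f. against PBS, and 0 to 1860 genes and 0 to 5 muscle genes for the knockout, whose median was -0.33 to 0.43, reversed without knockout D.f. replicate 6. Between genotypes with D.f., 3 to 2750 genes and 0 to 28 muscle genes passed, for the interaction 0 to 1487 and 0 to 6, and for genotype over both treatments 2 to 357 and 0 to 4. Over both sets, 1098 to 2306 genes and 1 to 8 muscle genes passed, with a median of -0.73 to 0.62, reversed without PBS replicate 2 of the RNase III set. For the difference between sets, 0 to 114 genes and 0 to 3 muscle genes passed, with a median of -3.06 to 0.28, reversed to 0.28 without PBS replicate 1 and to 0.0038 without D.f. replicate 4.

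Without the filter, 10 genes passed for RNase III against PBS, 391 for D.f. in wild type of the knockout set, 549 genes and 14 muscle genes between genotypes with D.f., 16 for the interaction, 75 genes and 11 muscle genes for genotype over both treatments, and 3 muscle genes for RNase III against D.f. By DESeq2 the respective counts were 48, 642, 736 and 22, 213, 461 and 24, and 2, with 1923 genes for RNase III against D.f., 36 for D.f. in the knockout and 53 for the difference between sets. In 1 fit over all 12 libraries, 403 genes passed for D.f. in wild type of the knockout set and 7 for the interaction. In that fit 0 muscle genes passed for RNase III against D.f. and between genotypes with D.f. The numbers of all genes passing in those contrasts, and without the filter for RNase III against D.f., are not reported here. Those counts of muscle genes therefore have no share of all genes beside them. With filterByExpr, 1 gene passed for the interaction. Leaving out a lone PBS library of the knockout set removes its own contrast, and the fit over 12 libraries was not run for genotype over both treatments. At these depths, levels of Nppa, Myl2 and Nkx2-5 in most libraries rest on few reads. So do those of Ckm in the knockout libraries, with 7 to 14 reads each.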
